A study of Saccharomyces cerevisiae with 3 samples.

Results

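The nuclear genes for proteins of the mitochondrial ribosome were followed in baker's yeast, Saccharomyces cerevisiae, grown for 5 h with tomatidine. Members were all non-control probe sets whose annotated gene symbol was MRPL, MRPS, RSM or MRP followed by a digit. This gave 68 probe sets for 67 of the 5656 genes that had a probe set annotated to them alone. Of these genes 38 encode proteins of the large subunit and 28 proteins of the small subunit, and 1, MRP8, carries the name but is placed in neither subunit here.

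The study exposed wild-type cells of S288c, a common laboratory strain, to 15 µM tomatidine, to 7.5 µM tomatidine, or to dimethylformamide (DMF) alone, the solvent that all 3 cultures received. Tomatidine is what remains of tomatine, a defence compound of tomato plants, once its sugars are removed. RNA of each condition was read on 1 Affymetrix array, so no test was possible and no difference could be set against a spread between cultures. Signals below are deposited intensities scaled so that all arrays had the same median. They are not comparable between probe sets of different genes.

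The mitochondrial ribosome translates the few proteins encoded by mitochondrial DNA, nearly all of them membrane subunits of the respiratory chain and the ATP synthase. Apart from Var1, which yeast mitochondrial DNA encodes itself, its proteins are made in the cytosol from nuclear genes and imported. Many of their messenger RNAs are bound in yeast by Puf3, an RNA-binding protein that promotes their decay in glucose-grown cells. Some subunits have counterparts in the bacterial ribosome, and others are found in mitochondria only.

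As a group the members lay below the median gene on both tomatidine arrays, by a small amount. At 15 µM their median log2 ratio over control was -0.25, with quartiles at -0.50 and 0.01, against -0.03 for all 4723 genes compared, with quartiles at -0.28 and 0.23. Below 0 lay 49 of 67 members (73.1%), against 52.4% of all genes. Of the members 1 was at least 2-fold lower and none at least 2-fold higher, where 1.14% and 2.73% of all genes were. At 1.5-fold, 11 members were lower and none higher, against 6.9% and 8.26% of all genes. MRPS5, counted at 1.5-fold at both doses, and RSM25 exceeded the signal floor of 18.2 on the control array alone. Signals under that floor were not resolved, so both genes could only come out lower in every count against control.

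At 7.5 µM the median of the members was -0.19, with quartiles at -0.44 and 0.07, against -0.03 for all genes. There 45 of 67 lay below 0 (67.2%), MRPS5 and RSM25 again among them, against 53.7% of all genes. None was at least 2-fold higher or lower, where 1.99% and 0.614% of all genes were. At 1.5-fold 7 members were lower and 2 higher, against 5.21% and 8.62% of all genes. Both comparisons use the same control array, so they are not independent of each other.

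These directions are relative to the median probe set. After this scaling the control array read the bacterial and phage spike probe sets 1.78-fold brighter than did the 15 µM array, and 1.61-fold brighter than did the 7.5 µM array. Scaled on the spikes, the median of all genes stood at 0.74 and 0.59 and that of the members at 0.55 and 0.46 for 15 µM and 7.5 µM. The members thus turned to positive ratios with that scaling and were still 0.19 and 0.13 below the median of all genes. Probe sets that read the same gene differed with a pooled SD of 0.40 log2 units at 15 µM and 0.35 at 7.5 µM over 210 genes, a spread that holds probe effects and nothing of the spread between cultures.

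**Figure D1:**
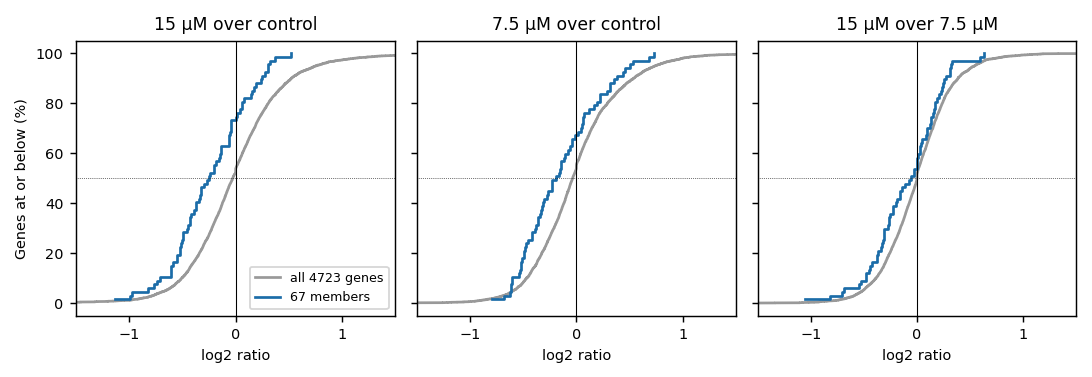
Cumulative share of genes (percent, vertical axis) at or below a log2 ratio (horizontal axis) for the 67 members (blue) and all 4723 genes compared (grey), with arrays scaled to their median. The blue curve lies to the left of the grey one in both comparisons with the control (medians -0.25 and -0.19 against -0.03), an order to 0 that turns with spike scaling, and close to it for 15 µM over 7.5 µM.

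In the large subunit the median log2 ratio was -0.29 at 15 µM and -0.18 at 7.5 µM, with 28 of 38 genes below 0 in each comparison. In the small subunit it was -0.21 and -0.23, with 21 and 17 of 28 below 0. The difference between the subunits, large minus small, was -0.08 at 15 µM and 0.05 at 7.5 µM. It became 0.01 at 15 µM once ratios were centred along the probe set number, as described further on. With the signal floor at the 60th percentile it was -0.23 and -0.09 over the 53 members left.

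MRPL13 had the lowest ratio of all members at 15 µM, and MRPS28 and MRPL20 came next. MRPL13, a mitochondria-specific protein of the large subunit known not to be essential for mitochondrial translation, had signals of 130.1 on the control array, 74.97 at 7.5 µM and 59.3 at 15 µM. It was 2.19-fold lower at 15 µM and 1.74-fold lower at 7.5 µM. MRPL13 was the only member at least 2-fold lower than control, and its ratio was -0.92 after centring along the probe set number. MRPL20, also mitochondria-specific, went from 78.9 on the control array to 55.1 and 40.2 at 7.5 and 15 µM, with log2 ratios of -0.52 and -0.97. For both genes the control array was the highest and the 15 µM array the lowest.

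A second set of members was low on the 15 µM array alone. MRPS28, the counterpart of bacterial uS15, had signals of 59.3, 61.7 and 29.7 on the control, 7.5 µM and 15 µM arrays. Its log2 ratio over control was -0.997 at 15 µM, just short of 2-fold, and 0.06 at 7.5 µM. MRPL49, the counterpart of bL21, read 97.6, 101 and 57.2 in the same order. In these signals the control and 7.5 µM arrays were thus alike for both genes, and the 15 µM array lay below both. After centring along the probe set number, described further on, the 7.5 µM ratio was 0.02 for MRPS28 and 0.27 for MRPL49.

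MRPL31, mitochondria-specific, read 60.1, 58.5 and 35.9 on the control, 7.5 µM and 15 µM arrays. MRPL24, the counterpart of bL28, read 39.99, 36.3 and 22.6, the last close to the floor of 18.2 under which signals were not resolved. MRPL4, the counterpart of uL29, read 76.3, 77.2 and 53.0. At 15 µM the log2 ratios over control were -0.77 for MRPL49, -0.74 for MRPL31, -0.82 for MRPL24 and -0.53 for MRPL4, and at 7.5 µM they were 0.05, -0.04, -0.14 and 0.02.

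Other members were low on both tomatidine arrays. RSM7, the counterpart of uS7, which binds the 3' domain of the small ribosomal RNA in bacteria, had signals of 173 on the control array and 113 on each tomatidine array, with log2 ratios of -0.61 at 15 µM and -0.62 at 7.5 µM. MRPL39, the counterpart of bL33, read 229.7, 149 and 163 on the control, 7.5 µM and 15 µM arrays. MRPL38, the counterpart of uL14, read 79.1, 51.6 and 64.4. RSM7 had the same signal at both doses, whereas MRPL38 and MRPL39 had their lowest value at 7.5 µM, with log2 ratios of -0.62 and -0.63 there and -0.30 and -0.49 at 15 µM.

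MRPL3 and MRPL15 encode a pair of mitochondria-specific proteins with a fold related to the enzyme RNase III, which sit together on the large subunit. MRPL3 read 85.6 on the control array, 53.3 at 7.5 µM and 63.7 at 15 µM, with log2 ratios of -0.68 and -0.43. MRPL15 read 72.4, 50.2 and 51.2, with log2 ratios of -0.53 and -0.50. Both were lower on each tomatidine array than on the control array. MRPL15 was the only member read by a probe set that is not of the plain type.

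MRP1 and RSM26 encode another pair of mitochondria-specific proteins, related in fold to superoxide dismutase, in the small subunit. MRP1 read 133, 96.3 and 103 on the control, 7.5 µM and 15 µM arrays, with log2 ratios of -0.47 at 7.5 µM and -0.37 at 15 µM. RSM26 read 48.9, 34.1 and 33.5, with log2 ratios of -0.52 and -0.55. The tomatidine arrays were below the control array for both genes and differed little from each other.

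MRPS12, the counterpart of uS12, a protein of the decoding centre, read 207, 164 and 136, with log2 ratios of -0.34 at 7.5 µM and -0.60 at 15 µM. Its neighbour on chromosome XIV, RSM19, the counterpart of uS19, read 66.5, 53.0 and 57.6, with log2 ratios of -0.33 and -0.21. They were the only adjacent members, and both were highest on the control array. The other members at least 1.5-fold lower at 15 µM were RSM28 (log2 ratio -0.72) and MRPL40 (-0.59), and MRPS5, the counterpart of uS5, with a control signal of 27.8 and both tomatidine arrays at or under the floor, was at least 1.53-fold lower at each dose. At 7.5 µM MRPL25 (-0.60) was the remaining one. RSM19, RSM28, MRPL40 and MRPL25 were named after their values were seen.

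Members above the control array were fewer and none reached 2-fold. MRPL6, the counterpart of uL6, had the highest ratio at 15 µM, with signals of 42.0, 48.0 and 60.3 on the control, 7.5 µM and 15 µM arrays and a log2 ratio of 0.52. MRPL9, the counterpart of uL3, read 82.7, 86.2 and 107, with a log2 ratio of 0.37 at 15 µM. For both, the 15 µM array was the highest. MRP20, the counterpart of uL23 at the exit of the peptide tunnel, read 21.6, 25.2 and 26.7, and MRP21, the counterpart of bS21, read 19.5, 28.1 and 24.4, all near the floor.

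At 7.5 µM the highest members were MRPS9, MRPL27, MRP21, RSM10 and MRP17, of which MRPL27 and MRP21 were also among the highest at 15 µM. MRPS9, the counterpart of uS9, read 45.2 on the control array, 75.1 at 7.5 µM and 53.8 at 15 µM, with log2 ratios of 0.73 and 0.25. MRPL27, mitochondria-specific, read 42.9, 68.9 and 53.0, with log2 ratios of 0.68 and 0.30. RSM10, the counterpart of uS10, read 63.4, 90.1 and 72.5, and MRP17, the counterpart of bS6, read 108, 149 and 120.0. All of these were highest at 7.5 µM and lowest on the control array.

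The steadiest of the members described here were MRPL32 and MRP8. MRPL32, the counterpart of bL32, whose precursor must be cut by the m-AAA protease of the inner membrane before the ribosome can be assembled, read 37.5, 40.7 and 39.1 on the control, 7.5 µM and 15 µM arrays. MRP8 read 187, 192 and 198. MRPS16, the counterpart of bS16, read 173, 155 and 180.3, with its lowest signal at 7.5 µM. The genes of the m-AAA protease subunits, YTA12 and AFG3, had log2 ratios of -0.44 and -0.05 at 15 µM and -0.55 and -0.25 at 7.5 µM.

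**Figure D2:**
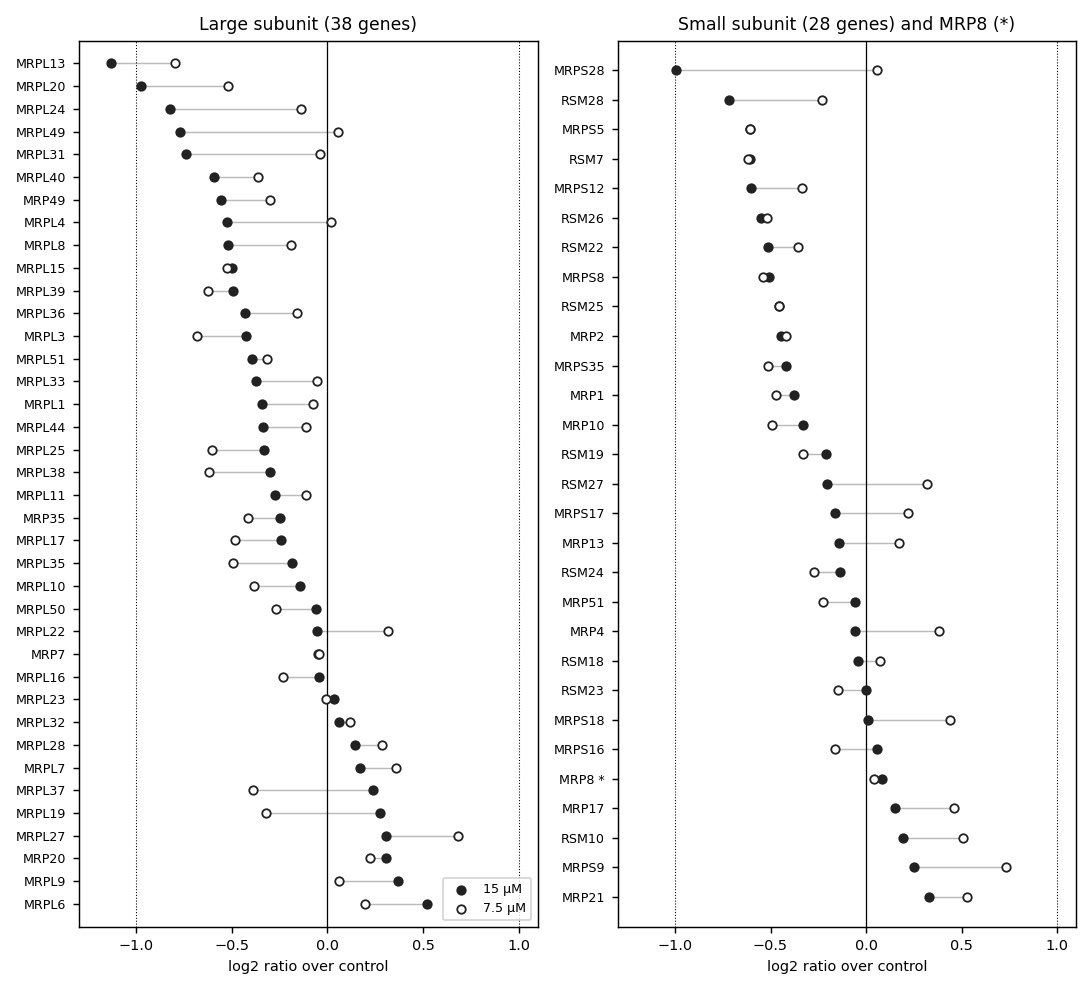
Log2 ratio over the control array (horizontal axis) for each member gene (rows) at 15 µM (filled points) and 7.5 µM (open points), with arrays scaled to their median and dotted lines at 2-fold. Most points lie left of 0, a side that turns with spike scaling. MRPL13 at 15 µM lies past the left dotted line, and MRPS28, MRPL49 and MRPL31 have an open point near 0 and a filled point far to the left.

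The doses were also compared with each other, which does not involve the control array. The median log2 ratio of the members at 15 µM over 7.5 µM was -0.06, against 0 for all genes, and 37 of 67 (55.2%) lay below 0, against 49.7% of all genes. MRPS28 was 2.08-fold lower at 15 µM and no member was 2-fold higher, where 0.296% and 0.72% of all genes were. At 1.5-fold 4 members were lower, MRPS28, MRPL49 (-0.82), MRPL31 (-0.70) and MRPL24 (-0.68), and 2 were higher, against 3.09% and 4.07% of all genes. With the floor at the 60th percentile the ratio of MRPS28 was -0.44, since its 15 µM signal of 29.7 fell under that floor, and the median of the 53 members left was 0.

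The higher members were MRPL37, mitochondria-specific, and MRPL19, the counterpart of uL11 at the site where translation factors bind. MRPL37 read 75.6, 57.7 and 89.1 on the control, 7.5 µM and 15 µM arrays, a log2 ratio of 0.63 between the doses. MRPL19 read 54.6, 43.6 and 65.9, a log2 ratio of 0.60. Both were lowest at 7.5 µM and highest at 15 µM.

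Members were also grouped by the ribosomal protein name that the gene table gives as a synonym. In that naming system, u and b mark proteins with a bacterial counterpart and m marks proteins of mitochondria only. Of the 65 members with such a name, 41 had a bacterial counterpart and 24 were mitochondria-specific. The mitochondria-specific genes had lower medians, -0.36 at 15 µM and -0.42 at 7.5 µM, with 20 of 24 below 0 at each dose. Those with a bacterial counterpart had medians of -0.14 and -0.08, with 28 and 24 of 41 below 0. RSM25 in the mitochondria-specific group and MRPS5 in the other could only come out below 0.

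Among the members, the lower median of the mitochondria-specific genes was seen in both subunits. In the large subunit it was -0.37 for 14 mitochondria-specific genes and -0.20 for 24 with a bacterial counterpart at 15 µM, and -0.44 and -0.09 at 7.5 µM. In the small subunit it was -0.35 for 10 and -0.06 for 17 genes at 15 µM, and -0.36 and 0.06 at 7.5 µM. Between the doses, the medians of the mitochondria-specific genes and of those with a bacterial counterpart were -0.01 and -0.12. The grouping was made with the earlier results known, and the difference was not tested. Over all alternatives it ranged from -0.19 to -0.27 at 15 µM and from -0.26 to -0.38 at 7.5 µM. The grouping holds only genes that match the naming rule. The 12 other measured genes of the mitochondrial ribosome, described further on, were not grouped. The difference is thus shown for the members alone and may not hold for the whole ribosome. Among those 12 genes the lowest ratios were those of PET123 at 15 µM (-0.82) and of MNP1 at 7.5 µM (-0.83). MNP1 has a bacterial counterpart and stood at -0.72 at 15 µM, below the median of the mitochondria-specific members at each dose.

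**Figure D3:**
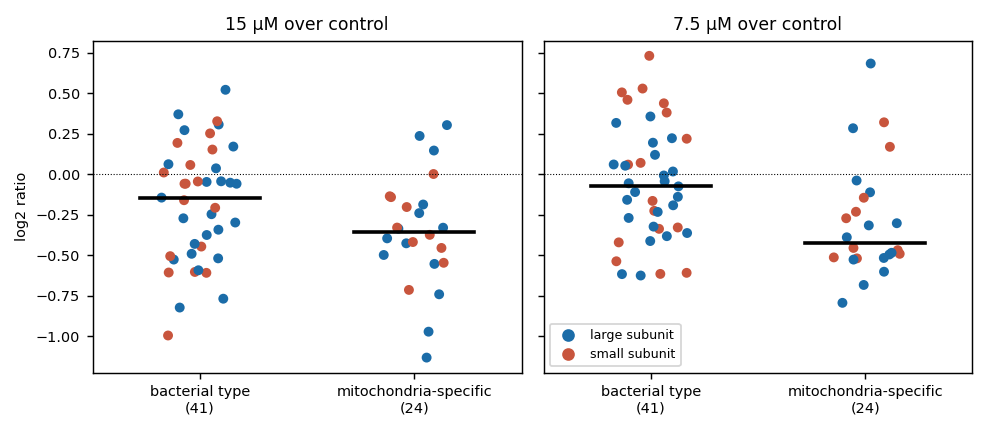
Log2 ratio over control (vertical axis) of members with a bacterial counterpart (41 genes) and of mitochondria-specific members (24 genes) at 15 µM (left) and 7.5 µM (right), coloured by subunit, with black bars at the medians. The bars lie at -0.14 and -0.36 on the left and at -0.08 and -0.42 on the right, and the points of the groups overlap widely. Their position against 0 turns with spike scaling, the order of the bars does not.

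Position on the array list moved with the ratios of all genes. Probe sets carry a running number that follows the chromosomes, and the median log2 ratio of all genes at 15 µM declined along it, from 0.09 for the 596 genes with numbers 4000 to 4999 to -0.21 for numbers 10000 to 10999 (656 genes) and -0.28 for the 241 genes above. At 7.5 µM the same bins had medians of 0.00, -0.13 and -0.24. The ratio of the doses changed less, from 0.05 to -0.06 and -0.04. The members followed this trend, with a Pearson correlation of -0.40 and a Spearman correlation of -0.42 between number and log2 ratio at 15 µM over the 67 genes, which share the same arrays. What causes the trend was not tested.

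Within each range of numbers the members' median was below that of all genes at 15 µM. It was -0.14 against 0.08 for numbers 4000 to 5999 (11 members), -0.10 against 0.06 for 6000 to 7999 (24 members), -0.24 against -0.10 for 8000 to 9999 (20 members) and -0.55 against -0.23 for 10000 to 11999 (12 members). At 7.5 µM it was 0.06 against 0.01, -0.16 against 0.00, -0.30 against -0.05 and -0.33 against -0.15, so that the first range did not show it. With every ratio centred on a running median along the number, the members' medians were -0.26 at 15 µM with 48 of 67 below 0, and -0.17 at 7.5 µM with 41 below 0. With this centring MRPL13 was no longer 2-fold lower, and MRPS28, at -1.12, was. MRPL20 stood at -0.78, MRPL49 at -0.51 and MRPL31 at -0.52.

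**Figure D4:**
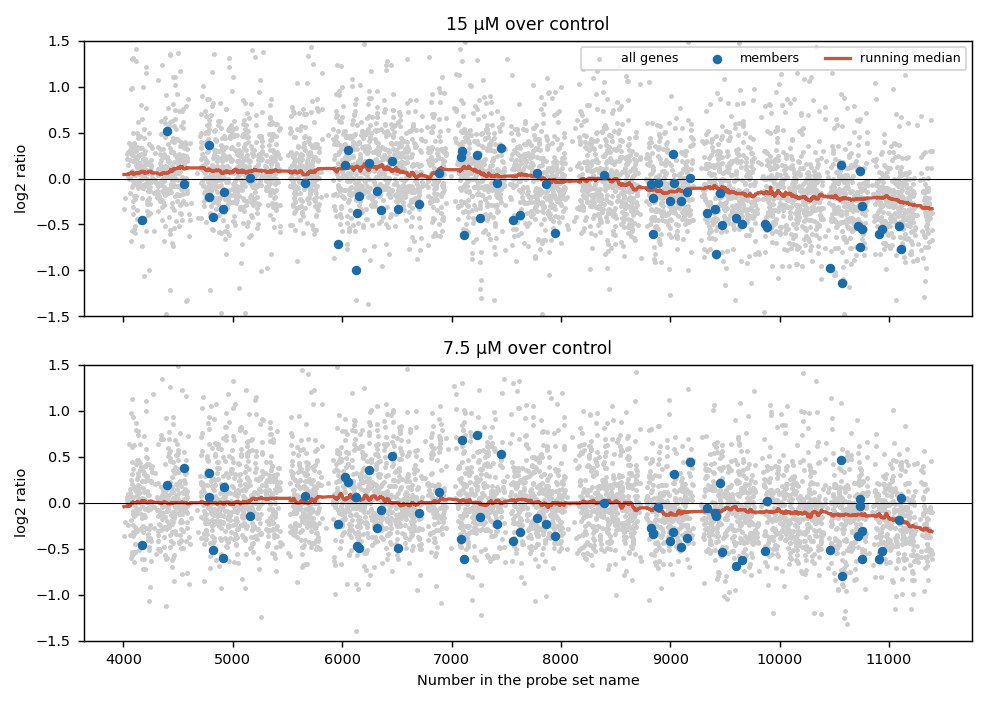
Log2 ratio over control (vertical axis, outermost genes not drawn) against the number in the probe set name (horizontal axis, from 4000) for all genes compared (grey), members (blue) and the running median of all genes (red), at 15 µM above and 7.5 µM below, with arrays scaled to their median. The red line falls below 0 towards high numbers, and most blue points lie below it; with spike scaling the whole plot moves up.

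Ratios of the members showed little relation to signal or gene length. The Pearson correlation with the log2 mean signal was -0.07 at 15 µM and -0.11 at 7.5 µM, and with gene length -0.09 and -0.05, over the same 67 genes. All 67 members exceeded the floor on 1 or more arrays, and 64 did so on all of them. MRPS5, RSM25 and MRP35 were the exceptions, the latter pair named after their values were seen. MRPL44, the only member with more than 1 probe set, read 81.7, 75.7 and 64.7 on the control, 7.5 µM and 15 µM arrays with the brighter probe set and 14.1, 19.2 and 17.3 with the other, which was mostly under the floor.

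Genes of the mitochondrial ribosome with other names also lay below the median gene. Of 13 on the array 12 were above the floor, with a median of -0.25 and 12 of 12 below 0 at 15 µM, and a median of -0.34 with 11 of 12 below 0 at 7.5 µM. None reached 2-fold. MNP1, the counterpart of bL12 in the stalk that binds translation factors, read 144.6, 81.3 and 88.1 on the control, 7.5 µM and 15 µM arrays, with log2 ratios of -0.83 and -0.72. PET123, a small subunit protein, had log2 ratios of -0.09 at 7.5 µM and -0.82 at 15 µM, so that it was low on the 15 µM array alone. VAR1, the mitochondrial gene, was under the floor on every array.

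Other genes of mitochondrial translation differed in their medians. The 14 measured genes of mitochondrial aminoacyl-tRNA synthetases and amidotransferase had a median of 0.06 at 15 µM and 0.02 at 7.5 µM, with 4 and 6 below 0. The 15 translational activators of mitochondrial messenger RNAs had medians of -0.06 and -0.13. The 13 genes of ribosome assembly, ribosomal RNA modification and precursor processing had medians of -0.13 and -0.18, and the 10 genes of mitochondrial DNA transcription and upkeep -0.14 and -0.08. After centring along the probe set number the medians of the activators were -0.01 and -0.15, those of the assembly genes -0.16 and -0.20, those of the mitochondrial DNA genes -0.015 and -0.0078, and those of the synthetases 0.02 and 0.07. In these lists no gene was 2-fold higher or lower. Many of their signals were close to the floor of 18.2. The median of the mean signals was 24.2 for the synthetases, 30.6 for the activators and 32.6 for the assembly genes. MSF1 and PET112 among the synthetases and amidotransferase, and CBS1 and CBS2 among the activators, exceeded the floor on 1 array only. So did MRX8 among the assembly genes and DSS1 among the mitochondrial DNA genes, both on the control array. The assembly median at 15 µM before centring was the ratio of MRX8. The activator median at 7.5 µM before centring was that of CBS2, above the floor on the control array alone. The floor limits such ratios and the medians that include them.

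Of 10 translation factor genes 7 were compared, with medians of -0.50 at 15 µM, which became -0.29 after centring, and 0.05 at 7.5 µM. AIM23 and MRF1 exceeded the floor on the 7.5 µM array alone, so that they could only be higher there and stood at 0 at 15 µM, and the 7.5 µM median rests on them. TUF1, the mitochondrial elongation factor Tu, read 204.6, 212 and 144 on the control, 7.5 µM and 15 µM arrays, with a log2 ratio of -0.50 at 15 µM. MEF1, elongation factor G, read 79.8, 56.4 and 55.2. TUF1 was low on the 15 µM array only, and MEF1 on both tomatidine arrays. MEF2 and RSO55 had log2 ratios of -0.91 and -0.77 at 15 µM and -0.38 and -0.90 at 7.5 µM, and RRF1, the ribosome recycling factor, 0.12 and 0.23. Of 4 genes for proteins that hold the ribosome at the inner membrane, 3 were below 0 at each dose, with medians of -0.37 and -0.33. MBA1 read 60.4, 34.5 and 33.0 on the control, 7.5 µM and 15 µM arrays, and OXA1, the insertase, read 201.2, 159 and 164. MDM38 had log2 ratios of -0.44 at 15 µM and -0.31 at 7.5 µM, whereas YLH47 was lowest on the control array, with 0.11 and 0.35.

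Of 6 regulator genes 5 were compared, with medians of -0.04 at 15 µM and -0.29 at 7.5 µM. HAP4, the activator subunit for respiratory genes, read 61.9 on the control array, 21.1 at 7.5 µM and 13.8 at 15 µM, the last under the floor. Its log2 ratios were -1.76 at 15 µM, a size limited by the floor, and -1.55 at 7.5 µM. HAP4 was thus at least 2-fold lower at both doses, where 1.14% and 0.614% of all genes were at 15 µM and 7.5 µM. PUF3 was under the floor on all arrays, so that its level could not be followed. HAP1, an activator gene disrupted by a transposon insertion in S288c, had log2 ratios of -0.46 and -0.49 at 15 µM and 7.5 µM. HAP2 and HAP3, which encode DNA-binding subunits of the complex that Hap4 activates, had log2 ratios of 0.24 and 0.30 at 15 µM and -0.29 and 0.07 at 7.5 µM. HAP5, the remaining DNA-binding subunit, was near or under the floor on every array.

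Set beside the members, the 34 genes of respiratory chain and ATP synthase subunits had medians of -0.29 at 15 µM and -0.22 at 7.5 µM, with 29 and 26 below 0. The 80 cytosolic ribosomal protein genes had medians of -0.34 and -0.28, with 70 and 67 below 0. The 42 nucleolar genes of cytosolic ribosome biogenesis had medians of -0.21 and -0.02, with 31 and 22 below 0. After centring along the probe set number the medians at 15 µM were -0.29, -0.26 and -0.13, beside -0.26 for the members. The members' shift at 15 µM was thus not larger than that of the respiratory chain or cytosolic ribosomal protein lists, and no difference between the lists was tested.

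**Figure D5:**
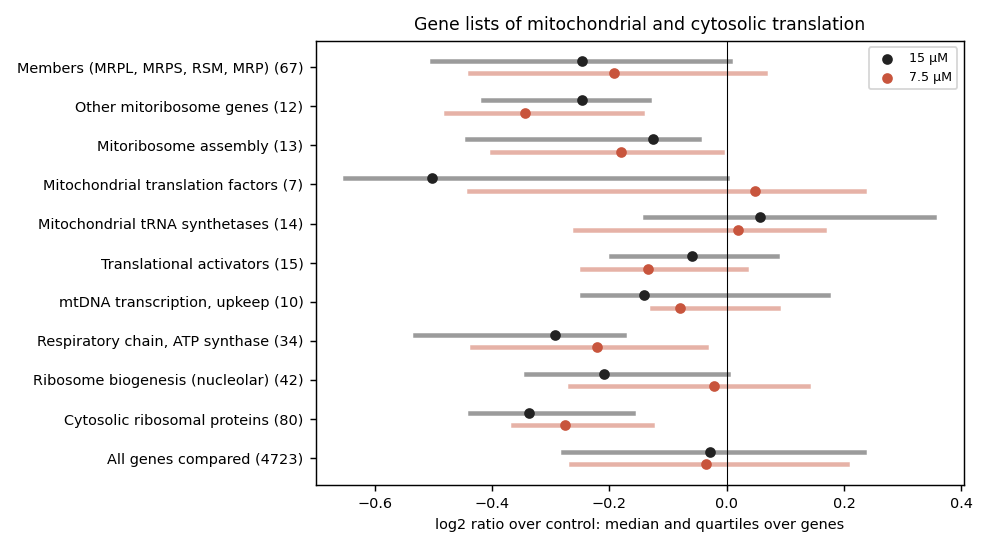
Median (points) and quartiles (bars) of the log2 ratio over control (horizontal axis) for gene lists of mitochondrial and cytosolic translation (rows, with the number of genes compared) at 15 µM (black) and 7.5 µM (red), with arrays scaled to their median. Members, other mitoribosome genes, respiratory chain and cytosolic ribosomal protein genes lie left of all genes, and the tRNA synthetase genes lie right of 0. The translation factor point at 7.5 µM rests on AIM23 and MRF1, seen on that array alone. The assembly point at 15 µM is the ratio of MRX8, and the activator point at 7.5 µM that of CBS2. MRX8 and CBS2 exceeded the floor on the control array alone. With spike scaling all points move up.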

How the data were processed

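Values deposited by the authors are linear intensities, 1 for each probe set on each array. How probes were summarised is not given in the sources used here. Leaving out the lowest and highest 2%, the mean of the deposited intensities was 100.1 on each array, so a global scaling had been applied and a change in total messenger RNA cannot be seen.

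Of 9335 probe sets, 60 were controls, 6504 had 1 gene, 328 several and 2443 no entry in the platform annotation. All 67 members matched the R64 gene table, used for symbols, ribosomal names and neighbours. Each array was divided by its non-control median (factors 0.974, 0.986 and 1.04 for 15 µM, 7.5 µM and control), floored at the 40th percentile (18.2) and put on the log2 scale. The brightest probe set of a gene was used. The 2-fold rule asked that the brighter of the arrays exceed the floor, and is a rule of size and not a test. The number of arrays limits the precision.

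Members, lists and rules were chosen with earlier results of these data known. Named members were the 5 highest and 5 lowest of each comparison, those at 1.5-fold at both doses, the 4 with the brightest probe sets, those read by several or special probe sets, and MRPL32, MRP1 and RSM26. The code was tested on simulated data. Planned counts of promoter motifs were not made, since no sequence was used here. Python 3.11.15, numpy 2.4.6, pandas 2.3.3, scipy 1.17.1, statsmodels 0.14.6 and matplotlib 3.10.9 were used.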

Additional observations from a re-analysis of the deposited data

How the results depend on the processing

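With 1 array per condition, no replicate could be left out and no paired analysis was possible. The settings tried were quantile normalisation, no scaling, lowess centring on signal (span 0.3), a floor at the 20th or the 60th percentile, a pseudocount at the 5th percentile instead of a floor, averaged probe sets, plain probe sets only, and a 1.5-fold rule. Spike scaling (8 probe sets) and centring along the probe set number were chosen after seeing the data. With the values as deposited the members' median was -0.15 at 15 µM and -0.11 at 7.5 µM. Spike scaling turned it to 0.55, 0.46 and, between the doses, 0.071, with 3 and 2 members below the control and 8, 9 and 0 past 2-fold at 15 µM, at 7.5 µM and between the doses; the medians of all genes were then 0.74, 0.59 and 0.14. The 60th percentile floor gave a median of 0 and 0 members past 2-fold between the doses, and subunit differences of -0.23 and -0.094. Members past 2-fold at 15 µM were 3 with quantile normalisation (MRPL20 and MRPS28 joined), 2 with lowess centring and 11 at 1.5-fold. At 7.5 µM they were 2 with the 20th percentile floor (MRPS5 and RSM25), 1 with the pseudocount and 9 at 1.5-fold, and between the doses 6 at 1.5-fold. Low signals near the floor limit MRPS5, RSM25, MRP35, MRP20 and MRP21.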

Other observations

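By chromosome, as given by the gene table, the median log2 ratio of all genes at 15 µM was -0.30 on chromosome I (68 genes), -0.24 on X, -0.21 on XI, -0.19 on XII and -0.14 on XIII and XIV, and lay between 0.04 and 0.10 on chromosomes II to IX. At 7.5 µM it was -0.29 on I and -0.19 on X, and 0.01 on IV. Chromosome and probe set number go together on this array, so these values cannot be told apart from the trend along the number. Of the members, 31 lie on chromosomes X to XIV. They were 4 of 284 genes compared on X, 8 of 270 on XI and 2 of 403 on XII. On XIII they were 7 of 370 and on XIV 10 of 315, against 67 of 4723 on all chromosomes.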
